A study of Mus musculus with 7 samples.

Results

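The NADPH oxidase subunits described here are 7 genes, Cybb, Cyba, Ncf1, Ncf4, Nox4, Rac1 and Rac2, taken by symbol from a table of 54532 genes counted in mouse retina, where each symbol had 1 row. Their RNA was compared between retinas of mice given an infusion of Ang II (angiotensin II, a peptide hormone that raises blood pressure; 4 libraries) and retinas of mice infused with saline (3 libraries), all on day 28. The series text gives every mouse, the saline controls included, as ApoE-/-, a line that lacks apolipoprotein E, whereas the sample labels give the genotype of all 7 samples as WT. The labels do not give age, sex, dose or how many animals went into a library, so p-values measure the spread between these libraries, which may be technical. The series compared the retinal transcriptomes of these groups.

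NADPH oxidases move electrons from NADPH across a membrane to oxygen and so make superoxide or hydrogen peroxide. In phagocytes, including microglia, the catalytic subunit encoded by Cybb (NOX2) sits in the membrane with a smaller partner encoded by Cyba, and becomes active when cytosolic subunits, among them those encoded by Ncf1 and Ncf4, and a Rac GTPase join it. Nox4 encodes another catalytic subunit, found in vascular and other cells, that also pairs with the Cyba product but does not need the cytosolic subunits. Ang II is widely studied as a stimulus of these enzymes in vessel walls.

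The promoters of the alternative catalytic subunits are shown because the counts of these genes are set beside each other below. Of the 7 genes, 4 had a promoter in the RefSeq table of build GRCm38.p6, which covers 250 bases before to 50 bases after a start. Capitals mark the ETS-type motif GAGGAA on either strand, searched without overlap with another motif.
Cybb, chrX:9469275-9469574, minus strand: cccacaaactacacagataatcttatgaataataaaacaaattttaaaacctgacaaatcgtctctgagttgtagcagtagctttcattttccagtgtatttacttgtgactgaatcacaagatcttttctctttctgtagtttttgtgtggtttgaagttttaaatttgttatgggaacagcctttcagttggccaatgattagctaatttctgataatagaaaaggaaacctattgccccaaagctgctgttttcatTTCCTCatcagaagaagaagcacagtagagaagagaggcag
Nox4, chr7:87246399-87246698, plus strand: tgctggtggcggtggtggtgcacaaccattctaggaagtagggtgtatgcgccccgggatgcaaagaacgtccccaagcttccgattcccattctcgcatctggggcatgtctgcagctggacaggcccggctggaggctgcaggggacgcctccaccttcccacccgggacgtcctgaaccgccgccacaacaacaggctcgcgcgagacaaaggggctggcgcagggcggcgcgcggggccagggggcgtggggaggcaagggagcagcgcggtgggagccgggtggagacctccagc
The Cybb window held 1 match, on the opposite strand, and the windows of Nox4, Cyba and Ncf1 held 0, while 28.3% of the 32851 promoters in the table held at least 1. The Cybb window was 35.3% G or C and the Nox4 window 68.3%, against a median of 52.7% over all promoters. Both RefSeq start sites lie inside the longer gene models of the deposited table. These are descriptions of sequence, and nothing in the counts tests a factor at either site.

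Libraries held between 15374638 and 17563493 counts in Ang II and between 14655431 and 16679829 counts in saline. Apoe, deleted according to the series text, had 253 to 406 counts in Ang II libraries and 150 to 304 in saline libraries, which does not decide the genotype because a knockout allele can leave part of a transcript. Gnat1, the rod transducin gene that marks retina, had 142734 to 211065 counts in Ang II and 190769 to 216009 in saline. Along the first principal component (33.3% of the variance) saline replicate 2 lay apart from the other 6 libraries. It held the fewest counts, and 21260 genes with a count, against 24024 to 24846 in the other 6. Nox4, Ncf4 and Rac2 each had 0 counts in saline replicate 2. Transcripts of the lens were abundant in Ang II replicate 2, whose 6 lens markers summed to 2967 CPM (counts relative to the TMM-scaled library size), against 1.93 to 588.0 CPM in the other Ang II libraries and 38.8 to 585.5 CPM in saline. Glial injury genes stood out in Ang II replicate 3, where Gfap was at 79.8 CPM and at most 8.05 CPM in the other Ang II libraries.

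Rac1 and Cyba were the subunits with most RNA per length. Levels between genes are given as CPM per kb, that is, CPM divided by the deposited gene length in kilobases. Over the 7 libraries Rac1 averaged 34.95 ± 1.63 CPM per kb (SD), Cyba 2.58 ± 0.945 and Ncf1 0.398 ± 0.124. Rac2 (0.120 ± 0.0862 CPM per kb), Ncf4 (0.0981 ± 0.139), Nox4 (0.0409 ± 0.0444) and Cybb (0.0337 ± 0.0156) followed. Rac1 lay above Cyba, and Cyba above Ncf1, in 7 of 7 libraries and with no overlap of their ranges. Below them every pair of neighbours overlapped: Ncf1 was above Rac2 in 6 libraries, Rac2 above Ncf4 in 5, Ncf4 above Nox4 in 5 and Nox4 above Cybb in 4, so that order is not settled by these data.

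**Figure D1:**
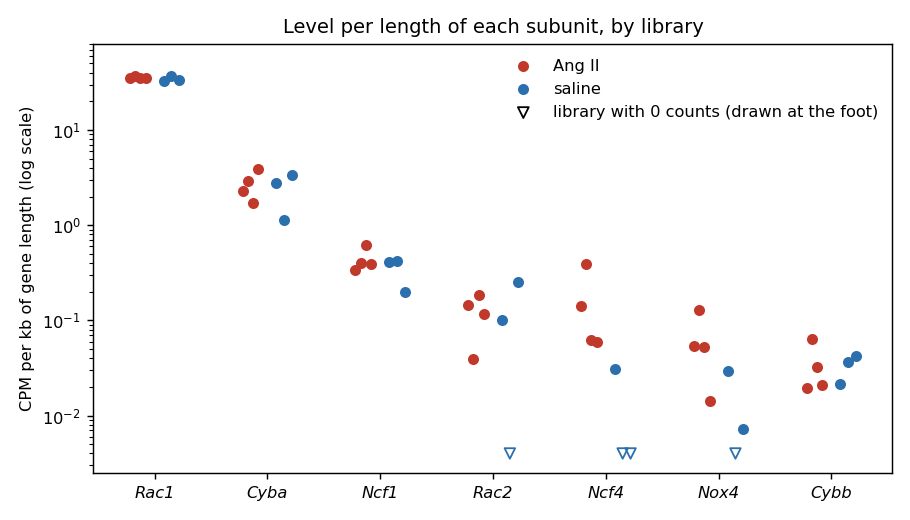
Level of each subunit in CPM per kb of gene length on a log axis, one point per library, Ang II in red and saline in blue, with open triangles at the foot for libraries with 0 counts. Rac1 and Cyba stand above the rest in all 7 libraries, while the ranges of Rac2, Ncf4, Nox4 and Cybb overlap.

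Of the 7 subunits, 3 (Cyba, Ncf1 and Rac1) had enough counts to enter the edgeR quasi-likelihood test across 17078 genes, and 0 of them passed an adjusted p of 0.05. The same test called 0% of all genes, so the absence of a call among the subunits is no different from the background. An unadjusted p under 0.05 was found for 0 of the 3, against 4.62% of all tested genes, and the groups did not overlap for 0 of the 3, against 5.91% of them. DESeq2, fitted to the 30590 genes with a count, gave an adjusted p to 16920 of them and called 0.213% of these. Cyba, Ncf1 and Rac1 had an adjusted p in DESeq2 and were not called. Whether Cybb, Ncf4, Nox4 and Rac2 had one was not checked, and a gene without one could not be called. In the edgeR test the median log2 fold change of the 3 subunits was 0.14, and that of all tested genes was 0.00. The other 4 subunits (Cybb, Ncf4, Nox4 and Rac2) fell under the filter on low counts and are given below as counts, with an exact permutation test chosen after the counts were seen.

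Nox4 (ENSMUSG00000030562, chromosome 7, 87246096 to 87398710, mm10) had 8, 18, 7 and 2 counts in Ang II replicates 1 to 4, against 4, 0 and 1 counts in saline replicates 1 to 3. Ang II replicate 2 was highest and saline replicate 2 had none, and the groups overlapped, since Ang II replicate 4 lay below saline replicate 1. Ang II libraries averaged 0.529 ± 0.411 CPM (SD, n = 4) and saline libraries 0.103 ± 0.129 CPM (SD, n = 3). Summed over libraries, 35 counts in Ang II and 5 in saline gave a rate 4.93 times as high in Ang II, with an exact 95% interval of 1.92 to 16.1 that covers counting error only. The spread between libraries was too wide for a call: the exact two-sided permutation p was 0.143 over 35 arrangements, which allow no p under 0.0286. The edgeR fit without a filter gave Nox4 an unadjusted p of 0.0149 and an adjusted p of 0.737, in a fit that called 0.32% of 30590 genes and gave 5.41% of them an unadjusted p under 0.05. Without Ang II replicate 2 the ratio was 3.18 (1.13 to 11.02), and without saline replicate 1 it was 16.1.

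Cybb (ENSMUSG00000015340, chromosome X, 9435252 to 9487771, mm10), the catalytic subunit of phagocytes, had 2, 6, 3 and 2 counts in Ang II replicates 1 to 4, against 2, 3 and 4 counts in saline replicates 1 to 3. The groups overlapped throughout, and Ang II replicate 2 was again the highest library. Ang II libraries averaged 0.198 ± 0.118 CPM (SD, n = 4) and saline libraries 0.193 ± 0.0622 CPM (SD, n = 3), and summed counts gave a ratio of 1.02 with a counting interval of 0.402 to 2.70. That interval covers counting error only and rests on 22 counts in all. The exact permutation p was 1, the largest the test can give.

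Cyba (ENSMUSG00000006519, chromosome 8, 122424776 to 122432930, mm10), which encodes the membrane partner of both catalytic subunits, had 42, 49, 28 and 67 counts in Ang II replicates 1 to 4, against 47, 17 and 57 counts in saline replicates 1 to 3. Saline replicate 2 was the lowest library, Ang II replicate 4 the highest, and the groups overlapped. Ang II libraries averaged 2.80 ± 0.969 CPM (SD, n = 4) and saline libraries 2.53 ± 1.19 CPM (SD, n = 3), which put the log2 fold change at 0.14 ± 0.37 (SE; edgeR adjusted p = 0.985). The 95% interval of that fold was 0.636 to 1.90. The direction turned without saline replicate 2 (-0.19) and without Ang II replicate 4 (-0.09). Per length, Cyba exceeded Cybb by 45.7 to 187.3 times in the Ang II libraries and by 31.7 to 131.4 times in the saline libraries, a ratio whose lower term rests on 2 to 6 counts.

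**Figure D2:**
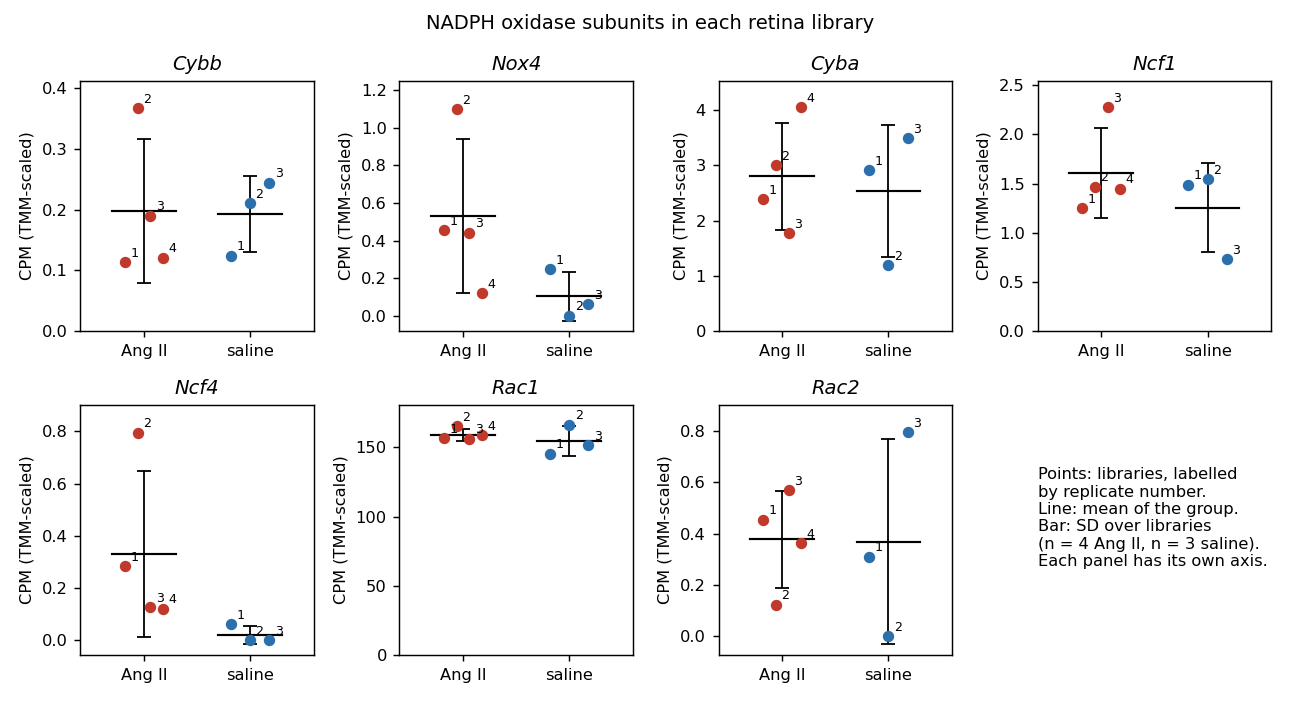
CPM of each subunit by group, one point per library numbered by replicate, Ang II left of saline, with the mean as a line and the SD as a bar (n = 4 and n = 3). Each panel has its own axis; the groups overlap in every panel but that of Ncf4, whose saline libraries held 1, 0 and 0 counts.

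Ncf1 and Ncf4 encode cytosolic organisers of the phagocyte enzyme. Ncf1 (ENSMUSG00000015950, chromosome 5, 134220053 to 134229625, mm10) had 22, 24, 36 and 24 counts in Ang II replicates 1 to 4, against 24, 22 and 12 counts in saline replicates 1 to 3. All but 2 libraries lay between 22 and 24 counts, with Ang II replicate 3 above them and saline replicate 3 below. Ang II libraries averaged 1.61 ± 0.455 CPM (SD, n = 4) and saline libraries 1.25 ± 0.452 CPM (SD, n = 3). The log2 fold change was 0.36 ± 0.39 (SE; edgeR adjusted p = 0.982), and the 95% interval of the fold ran from 0.725 to 2.27. With each library left out in turn, Ncf1 ranged from 0.09 (without saline replicate 3) to 0.53 (without saline replicate 2) on the log2 scale, and was 0.16 without Ang II replicate 3. Of the 3663 exonic bases of Ncf1, 408 (11.1%) overlap exons of Gtf2ird2 on the opposite strand, and the library protocol does not mark strand, so reads there are not separable. Gtf2ird2 was at 41.8 ± 4.25 CPM over Ang II libraries (SD, n = 4) and 46.3 ± 1.54 CPM over saline libraries (SD, n = 3), far above Ncf1, and its part in the Ncf1 counts was not tested.

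Ncf4 (ENSMUSG00000071715, chromosome 15, 78244801 to 78262580, mm10) had 5, 13, 2 and 2 counts in Ang II replicates 1 to 4, against 1, 0 and 0 counts in saline replicates 1 to 3. Every Ang II library lay above every saline library in CPM, which held for 2.64% of the 30590 genes with at least 1 count, and Ang II replicate 2 alone held 13 of the 22 Ang II counts. Ang II libraries averaged 0.331 ± 0.318 CPM (SD, n = 4) and saline libraries 0.0206 ± 0.0358 CPM (SD, n = 3), where 0 counts in a library allow up to 0.210 CPM in the shallowest. The ratio of summed counts was 15.5, with a counting interval of 2.51 to 639.7 because saline held 1 count. The exact two-sided permutation p was 0.114, with a spread within Ang II as large as the difference, and edgeR without a filter gave an unadjusted p of 0.00998 and an adjusted p of 0.652. Without Ang II replicate 2 the ratio of Ncf4 was 8.42 (1.17 to 368.9) and the exact permutation p 0.10. With groups of equal size, 20 arrangements allow no two-sided p under 0.10, so that p is the smallest possible.

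Rac1 (ENSMUSG00000001847, chromosome 5, 143503634 to 143528036, mm10) encodes a small GTPase of all cells that serves the oxidase besides its roles in the cytoskeleton. It had 2759, 2707, 2470 and 2628 counts in Ang II replicates 1 to 4, against 2348, 2372 and 2482 counts in saline replicates 1 to 3. After scaling, the libraries lay close together and overlapped, at 159.2 ± 4.31 CPM over Ang II libraries (SD, n = 4) and 154.5 ± 10.7 CPM over saline libraries (SD, n = 3). The log2 fold change was 0.04 ± 0.08 (SE; edgeR adjusted p = 0.985). The interval of the fold, 0.913 to 1.16, was the narrowest of the 3 tested subunits. Exons of Daglb on the opposite strand cover 2309 of the 4496 exonic bases of Rac1 (51.4%). Daglb was at 38.2 ± 2.85 CPM over Ang II libraries (SD, n = 4) and 41.1 ± 2.64 CPM over saline libraries (SD, n = 3), and how the authors' counting treated reads in the shared exons is not given in the sources used here.

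Rac2 (ENSMUSG00000033220, chromosome 15, 78559167 to 78572783, mm10), the Rac gene of blood-derived cells, had 8, 2, 9 and 6 counts in Ang II replicates 1 to 4, against 5, 0 and 13 counts in saline replicates 1 to 3. The highest and the lowest library were both saline, so the saline range enclosed that of Ang II. Ang II libraries averaged 0.377 ± 0.190 CPM (SD, n = 4) and saline libraries 0.368 ± 0.400 CPM (SD, n = 3). The ratio of summed counts was 0.979 (counting interval 0.513 to 1.90), and the exact permutation p was 0.971. Without saline replicate 3 the ratio was 2.29. Per length Rac2 was at 0.107% to 0.528% of Rac1 in Ang II and at 0% to 0.759% in saline. Of the stretches of 50 bases in the longest annotated Rac1 transcript, 55.0% also occurred in Daglb and none in Rac2, so the paralogs can be told apart by reads of that length.

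The subunits of the phagocyte enzyme were set beside markers of the cells that carry it. In bulk retina, fewer cells of a type and less RNA per cell cannot be told apart. The 19 microglia and macrophage markers summed to 88.4 to 106.0 CPM in Ang II and 84.6 to 94.4 CPM in saline, with overlap, and each marker had counts in at least 6 libraries. Of the 16 that were tested, 0 passed in either direction, 9 lay above 0 and 7 below, with a median log2 fold change of 0.04. Csf1r, the receptor for a growth factor of microglia, had the smallest p among them (24.5 ± 1.69 CPM, SD, n = 4 in Ang II, against 16.1 ± 3.55 CPM, SD, n = 3 in saline; log2 fold change 0.61 ± 0.15, edgeR adjusted p = 0.592). Every Ang II library lay above every saline library for Csf1r, while 5.91% of all tested genes did not overlap in either direction. The edgeR fit without a filter called Csf1r, with an adjusted p of 0.0185, and called 0.32% of 30590 genes.

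Cybb, Ncf1, Ncf4 and Rac2 together came to 37, 45, 50 and 34 counts in Ang II replicates 1 to 4, against 32, 25 and 29 counts in saline replicates 1 to 3. Relative to the summed microglia markers this was 2.37%, 2.59%, 3.09% and 2.06% in Ang II, against 2.25%, 2.07% and 1.88% in saline. The groups overlapped on that scale, as Ang II replicate 4 lay below saline replicates 1 and 2. The marker sum contains Csf1r, which was itself higher in every Ang II library. In CPM the summed genes did not overlap, at 2.05 to 3.16 in Ang II and 1.75 to 1.98 in saline. Among single tested genes 5.91% did not overlap, in either direction. Leaving out Ncf1 because of its antisense partner, the other 3 genes came to 0.605% to 1.21% of the marker sum in Ang II and 0.249% to 1.10% in saline. Their sum was 0.603 to 1.28 CPM in Ang II and 0.210 to 1.04 CPM in saline, so the groups overlapped on both scales. Neutrophils also carry the phagocyte enzyme, and most of their markers were sparse. The 10 neutrophil markers summed to 2.08 to 5.73 CPM in Ang II and 1.36 to 2.57 CPM in saline, with overlap. Elane had 0 counts in all 7 libraries and Ly6g had 1 count each in Ang II replicates 1 and 4, whereas Csf3r had 12 to 25 counts in every library. S100a9, an alarmin subunit, had 36, 4, 10 and 24 counts in Ang II replicates 1 to 4, against 0, 5 and 10 counts in saline replicates 1 to 3 (log2 fold change 1.75 ± 0.84, edgeR adjusted p = 0.982). Retnlg had 4, 5, 2 and 15 counts in Ang II replicates 1 to 4, against 0, 0 and 1 in saline replicates 1 to 3. Both of the tested neutrophil markers lay above 0 and 0 passed, and the part of neutrophil RNA in the subunit counts was not tested. The 9 lymphocyte markers summed to 1.33 to 2.87 CPM in Ang II and 1.40 to 2.14 CPM in saline, with Ms4a1 at 0 throughout.

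The sparse subunits Nox4 and Ncf4 were highest in the library with most lens RNA. Ang II replicate 2 held 18 of 35 Ang II counts of Nox4, and in the same library the lens crystallin gene Cryaa had 21423 counts, against at most 3845 in the other Ang II libraries and 5413 in saline. The same library was also highest for Gpx3, a secreted glutathione peroxidase (84.9 CPM, against 8.99 to 17.3 CPM in the other Ang II libraries and a mean of 14.3 ± 0.950 CPM, SD, n = 3, in saline), and for the macrophage gene Mrc1 (21 counts, against 0 to 3 in the other Ang II libraries and 3 to 7 in saline). The part of this lens and neighbouring tissue in the counts of Nox4 and Ncf4 was not tested. Ang II replicate 3, with 588.0 CPM of lens markers, had 7 counts of Nox4 and 2 of Ncf4, and saline replicate 3, with 585.5 CPM, had 1 and 0.

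The summed markers of the pigment epithelium did not overlap between Ang II and saline, and Nox4 lies beside one of its genes. The 11 markers of that layer summed to 671.7 to 1162 CPM in Ang II and 133.4 to 616.4 CPM in saline. Ttr had the most counts among them in every library. Of the 11 markers 10 lay above 0 and 1 below, and some overlapped between groups. Dct had 235 counts in Ang II replicate 4 and 338 in saline replicate 3. Pmel had 32 to 203 counts in Ang II and 22 to 101 in saline. On chromosome 7 the Nox4 gene model ends 26.1 kb from Tyr, the tyrosinase gene of melanin synthesis, which had 176, 145, 236 and 140 counts in Ang II replicates 1 to 4, against 27, 29 and 77 counts in saline replicates 1 to 3. The part of pigment epithelium RNA in the Nox4 counts was not tested.

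**Figure D3:**
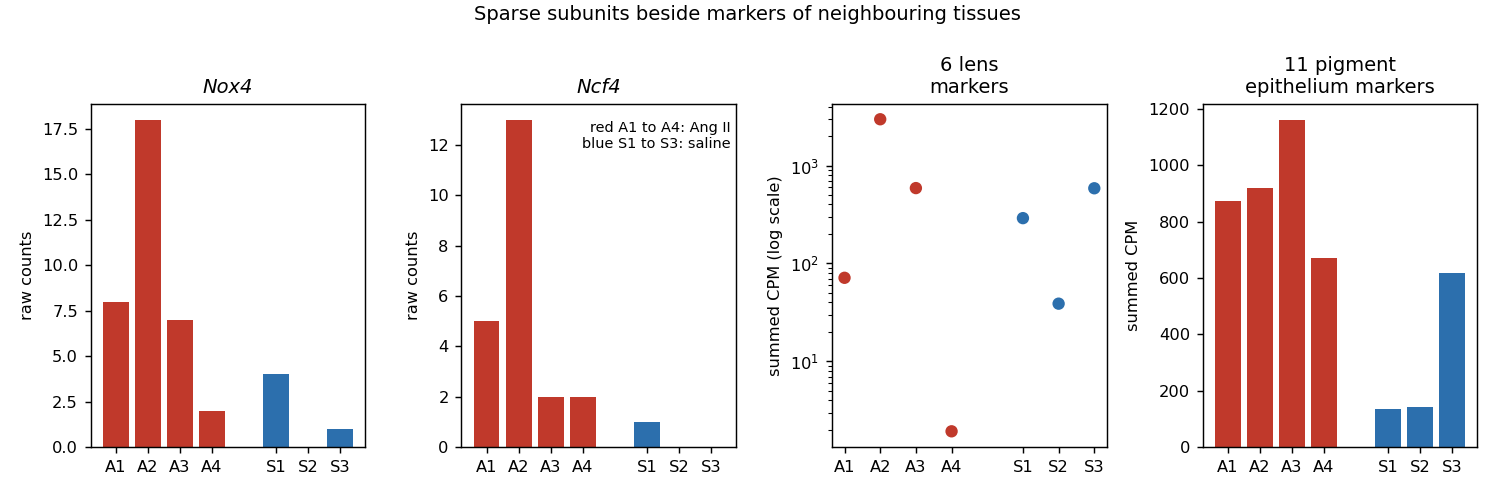
Raw counts of Nox4 and Ncf4, the summed CPM of 6 lens markers on a log axis and the summed CPM of 11 pigment epithelium markers, by library, with Ang II (A1 to A4, red) left of saline (S1 to S3, blue). Ang II replicate 2 is highest for Nox4 (18 counts), Ncf4 (13 counts) and lens (2967 CPM), while every Ang II library lies above saline for the summed pigment epithelium markers.

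The wider oxidase family was likewise without a call. Of 12 further NADPH oxidase genes found in the table, 5 could be tested, 0 passed in either direction, 3 lay above 0 and 2 below, and the median log2 fold change was 0.02. Sh3pxd2a, which encodes an organiser-like scaffold of invadopodia, had the smallest p (35.8 ± 2.86 CPM, SD, n = 4 in Ang II, against 31.4 ± 1.52 CPM, SD, n = 3 in saline; log2 fold change 0.19 ± 0.11). Cybc1, a chaperone needed for the Cybb and Cyba dimer, was close between groups at 17.0 ± 1.12 CPM over Ang II libraries (SD, n = 4) and 17.7 ± 1.34 CPM over saline libraries (SD, n = 3). The edgeR adjusted p was 0.982 for Sh3pxd2a and 0.985 for Cybc1.

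Among the other catalytic subunits, Nox1 had 3 to 6 counts in Ang II libraries and 4 to 6 in saline libraries, and Nox3, of the inner ear, had none in 7 libraries, which allows at most 0.210 CPM in the shallowest. Duox1 had 0 to 5 counts in Ang II and 0 to 8 in saline, and Duox2 0 to 7 in Ang II and 0 to 5 in saline. Noxa1, the activator partner of Nox1, also had 0 counts in every library, while its organiser Noxo1 had 12 to 23 counts in Ang II and 2 to 21 in saline (log2 fold change 0.29 ± 0.55, edgeR adjusted p = 0.985).

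All 18 genes of oxidase activation and Rac regulation were tested, and 0 passed. They divided into 9 above 0 and 9 below, with a median log2 fold change of 0.00, as over all genes. The smallest p belonged to Arhgdib, which encodes a GDP-dissociation inhibitor of small GTPases in blood cells (2.27 ± 0.417 CPM, SD, n = 4 in Ang II, against 3.30 ± 1.23 CPM, SD, n = 3 in saline; log2 fold change -0.53 ± 0.31, edgeR adjusted p = 0.982), and to Bcr, a regulator of Rac (-0.12 ± 0.09). Rac3, the neuronal paralog of Rac1, was at 5.82 ± 0.752 CPM over Ang II libraries (SD, n = 4) and 5.71 ± 0.0636 CPM over saline libraries (SD, n = 3). Per length Rac3 averaged 4.47 CPM per kb, between Rac1 and Cyba.

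**Figure D4:**
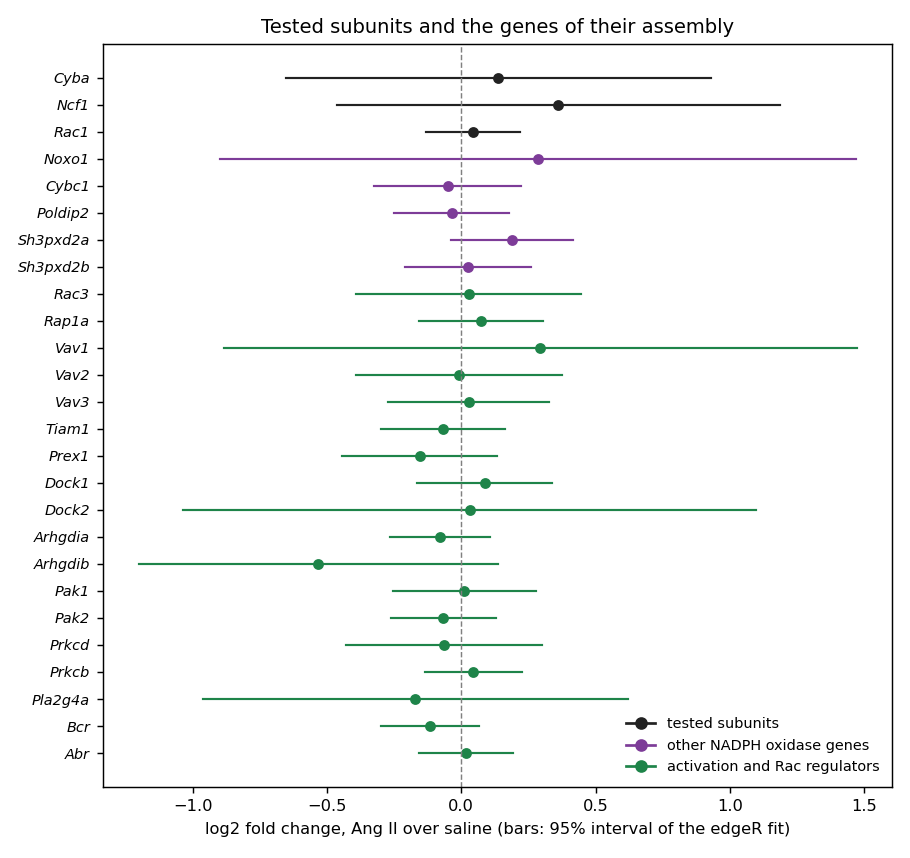
Log2 fold change of Ang II over saline with its 95% interval from the edgeR fit, for the 3 tested subunits, 5 other oxidase genes and 18 activators and Rac regulators. All 26 intervals include 0, and they are narrow for abundant genes such as Rac1 and wide for sparse ones such as Noxo1.

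Other sources and sinks of reactive oxygen also held no called gene. Of 8 other sources of superoxide or nitric oxide, 5 were tested and 0 passed, with a median log2 fold change of 0.00. The leading p among them belonged to Nos3, the endothelial nitric oxide synthase (-0.21 ± 0.18), and Xdh, xanthine dehydrogenase (-0.19 ± 0.24). Among 14 genes that remove superoxide and peroxide 0 passed, 3 lay above 0 and 11 below, with a median of -0.05. An unadjusted p under 0.05 was found for 1 of the 14, a share near the 4.62% over all tested genes. That gene was Cat, which encodes catalase, at 36.7 ± 1.21 CPM over Ang II libraries (SD, n = 4) and 26.2 ± 8.76 CPM over saline libraries (SD, n = 3) (log2 fold change 0.48 ± 0.17, edgeR adjusted p = 0.982). The groups overlapped, since Cat was at 35.9 CPM in saline replicate 3 and at 35.5 to 38.4 CPM in the Ang II libraries. Txn2, the mitochondrial thioredoxin gene, followed at -0.16 ± 0.09.

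Marker genes of the other tissues and cell types gave 0 calls in the filtered edgeR fit, but several lists held many genes with an unadjusted p under 0.05, a cut that 4.62% of all tested genes passed. Of 9 rod markers 5 were under it, all lower in Ang II, and the sum of the list was 27092 to 30531 CPM in Ang II and 32080 to 34133 CPM in saline, without overlap. Of 11 pigment epithelium markers 4 were under it, and of 7 reactive glia markers 2, all higher in Ang II. Without the filter edgeR called 0.32% of 30590 genes. Among them were Tyr (log2 fold change 1.90, adjusted p = 1.19e-11) and the reactive glia gene Osmr (0.87, adjusted p = 0.000191), both higher in Ang II. In the filtered edgeR fit the adjusted p was 0.312 for Tyr and 0.982 for Osmr. The part of these tissue differences in the subunit counts was not tested. The median log2 fold change was -0.20 over 9 rod markers, -0.21 over 8 cone markers, -0.01 over 8 Müller glia markers and 0.87 over 7 reactive glia markers. It was 1.16 over 11 pigment epithelium markers, 2.24 over 6 lens markers and -0.32 over 5 red blood cell markers. The summed reactive glia markers overlapped, at 45.3 to 228.9 CPM in Ang II, highest in replicate 3, and 39.5 to 52.7 CPM in saline. So did the summed lens markers, at 1.93 to 2967 CPM in Ang II, highest in replicate 2, and 38.8 to 585.5 CPM in saline. Summed markers of vascular cells, in which Nox4 is known to be used, overlapped between groups. The 10 endothelial markers summed to 284.6 to 343.5 CPM in Ang II and 300.3 to 331.3 CPM in saline, with 5 above 0, 5 below and 0 called. The 8 pericyte and smooth muscle markers summed to 135.3 to 145.2 CPM in Ang II and 130.9 to 141.8 CPM in saline, with 0 of 7 tested called. Flt1 and Kdr had the most counts among the endothelial markers, and Rgs5 among those of pericytes and smooth muscle, in every library. The part of vascular RNA in the Nox4 counts was not tested.

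For each subunit the genes of most similar pattern were taken as those with the highest Pearson correlation of log2 CPM over the 7 libraries, among 13427 genes with a mean of at least 1 CPM. With so many genes and 7 libraries that differ in depth and tissue content, high values arise readily, and they are descriptions. Cyba ran closest to Dusp6 (r = 0.989), Ngef (0.988) and Tenm3 (0.981), each lowest in saline replicate 2 and highest in Ang II replicate 4. Ncf1 ran with Dst (0.976), Meg3 (0.975) and Vps13a (0.975), each highest in Ang II replicate 3 and lowest in saline replicate 3. Rac1 ran with Pappa (0.978), Me3 (0.976) and Phf10 (0.974). Nox4 ran with Csrp2 (0.974), Cep70 (0.958) and Parp12 (0.946), and Ncf4 with Polr2a (0.970), Atp6v0e (0.968) and Zfp407 (0.962). For Rac2 the closest were Spryd3 (0.994), Bckdha (0.988) and Cd2bp2 (0.988), and for Cybb they were Rpl10 (0.953), Znhit3 (0.938) and Ifi27 (0.932). For the 4 sparse subunits a few counts set the pattern. None of the 21 genes so found was another subunit, but Cybb, Ncf4, Nox4 and Rac2 lay under the limit of 1 CPM. They could therefore not be found, and this says nothing on whether the subunits ran together.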

How the data were processed

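RNA of 7 retina samples was selected by poly-T beads and primed with random hexamers, without a step that marks strand, per the labels' protocols. The deposited values are whole-number counts per gene and library, which the authors did not normalize. Reads were handled with CASAVA, HISAT2 2.0.5 and featureCounts 1.5.0-p3 on mm10, per the submitters' processing notes. The annotation release and the strand and multi-mapping settings are not given in the sources used here. Gene lengths come from the deposited table, and 7 of 7 subunits had the same start and end in GENCODE M21.

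Columns were matched by sample description and grouped by treatment, and 0 library columns were left over. Groups were compared with edgeR 4.0.16 (R 4.3.3; robust quasi-likelihood test, two-sided) with group as the sole term, filterByExpr, TMM scaling and Benjamini-Hochberg adjustment over all tested genes, threshold 0.05. SE is the absolute log2 fold change over the root of F. Log2 CPM used a prior count of 2. Ratios of summed counts have exact conditional binomial 95% intervals, and 3 counts is the limit used for a library at 0. Both cover counting error only. Exons and stretches of 50 bases were compared in GENCODE M21, and the fit was tested on simulated data.

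Genes named are the 7 subunits, Apoe, genes of smallest p of the lists and the 3 nearest patterns per subunit. Others were named after their values were seen. The subunits and all lists were chosen with earlier results of these data known. Alternatives were DESeq2 1.42.0, limma 3.58.1 (voom), other scalings and filters, a replicate block and leaving out each library. Ang II and saline share replicate numbers 1 to 3, which the labels do not tie to shared animals or batches. Some genes of the lists are not reported here.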

Additional observations from a re-analysis of the deposited data

Results flagged for a closer look

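Among 62 sets of 4 Ang II libraries (7 subunits, the other named genes and the marker sums), 6 had a library farther from the rest than a 95% criterion for an outlying value allows. For sets chosen beforehand chance alone gives about 1 in 20. Some of these genes, Gpx3 and Gfap among them, were named after their values were seen, and the sums contain named genes. The share is therefore not comparable with that rate. None of the 6 was a subunit. In Ang II replicate 2 these were Mip, a lens membrane gene (66.9 CPM, 0 to 10.7 in the other Ang II libraries), Gpx3 (84.9 CPM, 8.99 to 17.3) and the cone gene Pde6c (103.5 CPM, 78.8 to 80.2). In Ang II replicate 3 they were Gfap (79.8 CPM, 6.84 to 8.05), the cytokine receptor gene Osmr (29.7 CPM, 16.0 to 17.3) and the sum of 7 reactive glia genes (228.9 CPM, 45.3 to 63.2). Ang II replicate 2 is the library that was highest for Nox4, Ncf4 and Cybb, and Ang II replicate 3 the one highest for Ncf1. Values of these subunits without each library are given beside the processing alternatives.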

How the results depend on the processing

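No subunit was called under any of 15 alternatives. Cybb, Ncf4, Nox4 and Rac2 entered only the DESeq2 fit and the edgeR fit without a filter, so elsewhere they could not be called. DESeq2 gave an adjusted p to only part of the genes it fitted. Whether Cybb, Ncf4, Nox4 and Rac2 were in that part was not checked, so they may not have been open to a call there either. The count of genes called over the whole table was 0, but 36 with DESeq2, 98 without a filter, 142 with limma-voom and quality weights, and 56 with the replicate block. Leaving out a library in turn gave 0 to 117, where 117 came without saline replicate 3. Same-numbered libraries did not deviate together (correlations -0.07, -0.02 and 0.05), so the numbers were not taken as pairs. Cyba turned to -0.0059 with limma-voom and quality weights, which gave saline replicate 1 a weight of 3.33, and to -0.031 with the replicate block, and ranged from -0.19 to 0.44 on leaving out a library. Rac1 kept its sign (0.00 to 0.12), as did Ncf1 (0.09 to 0.53), and the median of the tested subunits ran from 0.05 to 0.25. That median was over all 7 subunits in DESeq2 and without a filter, and over 3 in the other settings. The ratio of summed counts ranged over left-out libraries from 3.18 to 16.1 for Nox4, 8.42 to 18.8 for Ncf4, 0.680 to 2.29 for Rac2 and 0.727 to 1.19 for Cybb. For Ncf4 no ratio could be had without saline replicate 1, as 0 saline counts remained. The cause of these differences was not tested. Depth limits Cybb, Ncf4, Nox4 and Rac2, at 22 to 43 counts each over all libraries.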
